A study of Mus musculus with 4 samples.

Results

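The 10 genes described here encode the brakes of the mouse cell cycle: the Cip/Kip inhibitors Cdkn1a, Cdkn1b and Cdkn1c, the INK4 locus and its relatives Cdkn2a, Cdkn2b, Cdkn2c and Cdkn2d, the tumour suppressors Trp53 (p53) and Rb1 (RB), and Mdm2, the ubiquitin ligase of p53. They were chosen by gene symbol from the 54021 symbols counted, and all 10 were found. The samples were reconstituted ovaries (rOvaries), grafts that grew beneath the kidney capsule from primordial germ cells reaggregated with somatic cells of fetal female gonads. The donor embryos were C57BL/6 carrying an actin-GFP transgene, and the recipients of both groups were bilaterally ovariectomized G2 Terc-/- C57BL/6 females aged 10 weeks on average. Terc encodes the RNA of telomerase, so the host lacked telomerase in both groups while the donor cells were not from the Terc-/- line. The comparison asks what INK128, an inhibitor of the mTOR kinase, does to the graft. One group of 2 libraries (replicates 1 and 2) came from mice given INK128 in drinking water, with a labelled dose of 0.75 uM per g of body weight, and the other group of 2 libraries (replicates 1 and 3) came from mice without INK128. All 4 grafts were collected 1 month after transplantation, and polyA RNA was sequenced. No source states that the replicates were separate animals, so the p-values below measure only the spread between these samples, whatever its source.

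Cyclin-dependent kinases (CDKs) drive a cell through its cycle when bound to cyclins. The INK4 proteins block CDK4 and CDK6, the Cip/Kip proteins bind a wider set of cyclin-CDK complexes, and both keep RB unphosphorylated, so that it holds the E2F transcription factors in check. p53 induces Cdkn1a and its own antagonist Mdm2 after DNA damage or other stress. In the ovary, Cdkn1b is known to restrain the activation of primordial follicles, and Cdkn1a, Cdkn2a and Cdkn2b are widely used as markers of cell senescence.

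Each library held 19130209 to 23029089 counts. The INK128 libraries resembled each other, with 118 genes (1.004% of 11758) over 2-fold apart, whereas 1619 genes (13.8%) were over 2-fold apart between the controls. The 2 controls also differed in cell type markers. Control replicate 1 carried 1964 CPM (counts scaled to the library size) summed over 8 Sertoli cell markers, against 94.7 to 221.8 CPM in the other 3 libraries. Of the 8, 2 were lower and 1 higher in both INK128 libraries than in both controls, and the latter was lowest in control replicate 1. The same control had 45.2 CPM summed over 4 Y-linked genes, against at most 0.107 CPM elsewhere. These Y-linked reads go against the stated female origin of the donor gonads for that library, and each member is given with and without it below. Control replicate 3 had 25.4 CPM over 10 oocyte markers, against 760.4 to 1053 CPM in the others, and 8 of the 10 were higher and 0 lower in both INK128 libraries than in both controls. Of 12 kidney markers, 11 were lower in both INK128 libraries than in both controls, with sums of 70.3 and 174 CPM against 719 and 1444 CPM. Of 10 immune markers, 6 were lower in both, with sums of 278 and 258 CPM against 407 and 597 CPM. No marker was at 0 in every library, and granulosa markers, which define follicles of the ovary, summed to 2825 to 7707 CPM. The part of these markers in the results below was not tested. In bulk tissue, fewer cells of a type and less RNA per cell cannot be told apart.

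**Figure D1:**
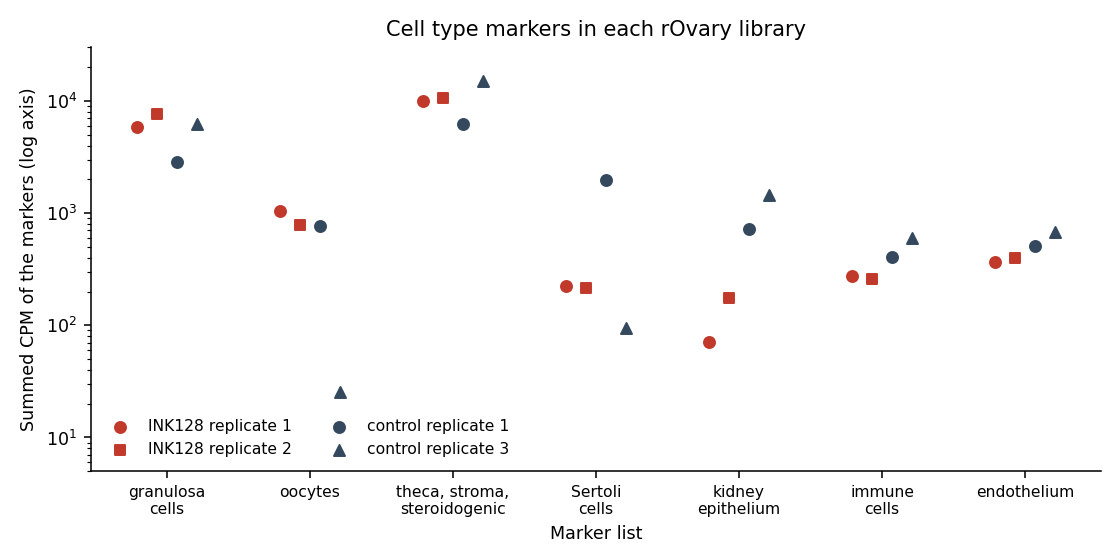
Summed CPM of 7 marker lists (log axis) in the 4 rOvary libraries, 1 point per library. Control replicate 3 is lowest for oocytes (25.4 CPM), control replicate 1 is highest for Sertoli cells (1964 CPM), and both controls lie above both INK128 libraries for kidney epithelium.

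Among the 10 genes, 5 were lower in both INK128 libraries than in both controls (Cdkn1a, Cdkn2a, Cdkn2b, Rb1 and Mdm2), 3 were higher in both (Cdkn1c, Cdkn2c and Cdkn2d), and Cdkn1b and Trp53 overlapped. The widest differences were those of Cdkn2b (7.06-fold higher in controls), Cdkn1a (2.95-fold higher in controls) and Cdkn1c (2.88-fold higher with INK128). None of them passed the edgeR test. Over all genes with a mean CPM above 10, 34.0% lay lower and 34.5% higher in both INK128 libraries without overlap. The 7 of 9 tested members without overlap thus stand beside a high background, which does not cover Cdkn2b, with a mean CPM below 10.

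A gene was called when its adjusted p (Benjamini-Hochberg) was below 0.05 and its fold change above 1.5. Of the 10 members, 8 had a mean CPM above 10 and entered the first fit of 11758 genes, Cdkn2b entered only the second fit (17631 genes, mean CPM above 1), and Cdkn2a was below both limits. edgeR's quasi-likelihood test called 0 of the 9 tested members, while it called 6.37% of all genes in the first fit and 0% in the second. At an unadjusted p below 0.05, it counted 3 members (Cdkn1a, Cdkn1c and Cdkn2b), beside 36.4% of all genes in the first fit and 33.0% in the second. DESeq2 called the same 3 members, beside 28.6% and 23.8% of all genes in those fits. With limma voom 0 members were called, but so were 0 of all 11758 genes in the first fit. Its 0 therefore says nothing about the members tested there. The median log2 fold change of the tested members was -0.33, with 4 positive and 5 negative values, and that of all tested genes was -0.03.

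The outcome depended on the controls. For 8 of the 10 members the controls were further apart than the INK128 libraries, by up to 3.05-fold against at most 1.5-fold. Without control replicate 1, edgeR called 4 members, beside 45.8% of all genes in the first fit. Without control replicate 3 it called 6, beside 42.6%. In these fits the lone control is assumed to vary like the INK128 pair. Cdkn1a and Cdkn1c were called in the same direction in both fits. Cdkn2b was too, but it belongs to the second fit, which the shares above do not cover. It also passed the limit of 1 CPM only through the controls, where it is high. Cdkn1b was called lower without control replicate 1 and higher without control replicate 3.

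**Figure D2:**
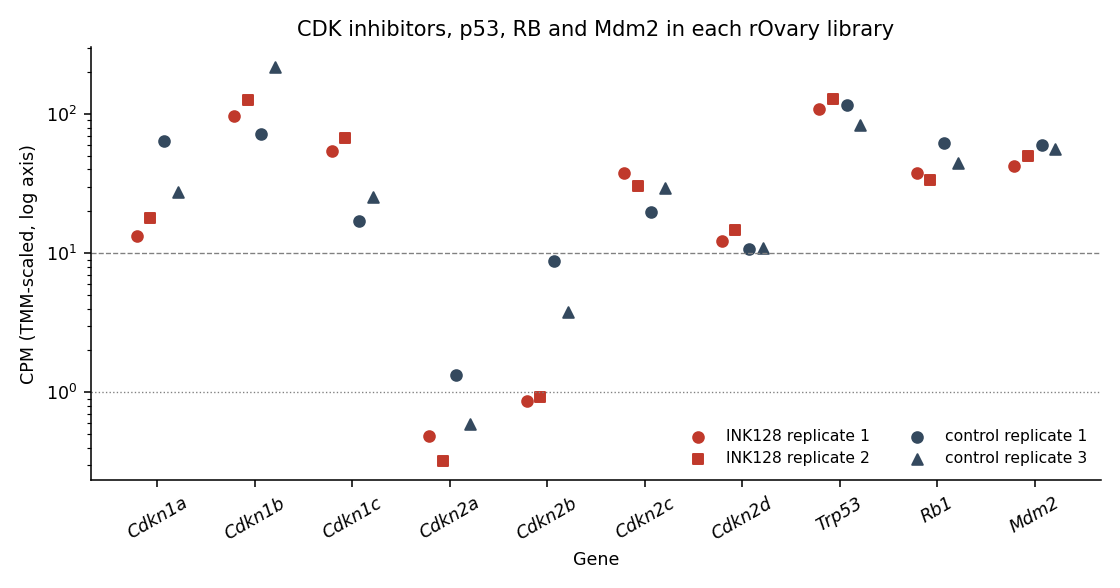
CPM scaled by TMM factors (log axis) of the 10 genes in each library, with red points for INK128, dark points for controls and lines at 10 CPM (dashed) and 1 CPM (dotted). Cdkn1a and Cdkn2b lie lower and Cdkn1c higher in both INK128 libraries, and the 2 controls of Cdkn1b lie on both sides of the INK128 pair at 71.5 and 218 CPM.

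Cdkn1a encodes p21, the Cip/Kip inhibitor induced by p53 (chromosome 17, 29090976 to 29100727 on mm10, plus strand). RefSeq lists 2 promoters for it (GRCm38.p6, 250 bases before to 50 after the start), and both are shown because the gene is the best known p53 target and had the lower INK128 values. In the upstream promoter, the capitals mark a p53 response element, 2 abutting half-sites of 10 bases with at most 1 mismatch outside the core letters, an allowance chosen after the sequence was read. In the downstream promoter, capitals mark GC boxes, GGGCGG on either strand, the sequence that Sp1 binds.

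Cdkn1a upstream promoter, chr17:29090729-29091028, plus strand: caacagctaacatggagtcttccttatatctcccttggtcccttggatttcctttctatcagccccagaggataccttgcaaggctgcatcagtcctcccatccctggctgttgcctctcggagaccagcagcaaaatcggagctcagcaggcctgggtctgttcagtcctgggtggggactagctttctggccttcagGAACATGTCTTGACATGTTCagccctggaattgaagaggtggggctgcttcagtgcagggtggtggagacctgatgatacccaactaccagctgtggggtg

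Cdkn1a downstream promoter, chr17:29093519-29093818, plus strand: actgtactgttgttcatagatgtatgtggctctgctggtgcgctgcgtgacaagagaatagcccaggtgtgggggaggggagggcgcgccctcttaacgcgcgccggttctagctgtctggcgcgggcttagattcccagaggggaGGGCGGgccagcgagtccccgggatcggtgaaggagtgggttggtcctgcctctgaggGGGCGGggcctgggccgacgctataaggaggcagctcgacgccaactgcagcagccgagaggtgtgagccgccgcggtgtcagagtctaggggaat

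The p53 element ended 31 bases before the upstream start. The same search found an element in 18 of 32851 RefSeq promoters (0.0548%) and in 1 of the 11 promoters of the members. GC boxes were in 8 of these 11 promoters and in 35.7% of all promoters. Of the 10 members, 8 had a promoter in the table, and Cdkn1c and Rb1 had no entry. A match describes the letters only.

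Cdkn1a had 13.3 and 17.8 CPM in INK128 replicates 1 and 2, and 64.5 and 27.4 CPM in control replicates 1 and 3. Both INK128 libraries were below both controls, and control replicate 1 was 2.36 times control replicate 3. Mean levels were 15.6 ± 3.18 CPM in treated and 45.9 ± 26.3 CPM in control grafts (SD, n = 2 each). On the log2 scale the difference was -1.56 (SE 0.47, adjusted p = 0.0952 in edgeR), and DESeq2 gave an adjusted p of 0.0137. Without control replicate 1 the log2 fold change was -0.81 (adjusted p = 0.0250, edgeR), and without control replicate 3 it was -2.05 (adjusted p = 3.12e-05, edgeR). AC167363.2, on the opposite strand, shares 273 exon bases with Cdkn1a and had 7 and 10 counts with INK128 against 89 and 67 in controls, where Cdkn1a had 248 and 387 against 1457 and 649. The strand setting of the counting is not stated, so reads of the shared bases cannot be assigned to a strand.

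Cdkn1b encodes p27, the inhibitor that SCF-Skp2 marks for degradation (chromosome 6, 134920401 to 134925513, plus strand). It had 96.7 and 126 CPM with INK128, and 71.5 and 218 CPM in control replicates 1 and 3. The controls lay on both sides of the INK128 pair and were 3.05-fold apart. With a log2 fold change of -0.38 (SE 0.55, adjusted p = 0.641 in edgeR), it was not called. Its sign depended on the control used: -0.97 without control replicate 1 (adjusted p = 0.00278, edgeR) and 0.64 without control replicate 3 (adjusted p = 0.0286, edgeR). Among the 8 marker lists, and picked for this order after the values were seen, the summed level of 9 theca, stroma and steroidogenic markers followed the same order, with 6221 CPM in control replicate 1, 10060 and 10710 CPM with INK128 and 15190 CPM in control replicate 3, where 1 marker was lower and 3 were higher in both INK128 libraries. Of the 9 markers, 3 followed this order one by one and 6 did not. The order was also that of 2 of 8 granulosa, 1 of 12 kidney and 1 of 6 endothelium markers, and the part of these markers in the result was not tested.

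Cdkn1c encodes p57, the Cip/Kip inhibitor of an imprinted locus (chromosome 7, 143458339 to 143461050, minus strand). It was the member with the smallest p and the only one of the Cip/Kip genes that was higher with INK128. Its levels were 54.6 and 67.4 CPM with INK128 and 17.0 and 25.3 CPM in controls, so both INK128 values were well above the higher control. The means were 61.0 ± 9.05 CPM (SD, n = 2) and 21.2 ± 5.90 CPM (SD, n = 2). This gave a log2 fold change of 1.53 (SE 0.28, adjusted p = 0.0507 in edgeR), just above the limit of 0.05, so it was not called. DESeq2 gave an adjusted p of 0.000214. It was 1.27 without control replicate 1 and 1.84 without control replicate 3, with adjusted p-values of 0.000744 and 8.37e-05 (edgeR). With offsets for exon length it was 1.01 (adjusted p = 0.136, edgeR). The antisense gene Gm44732 shares 625 exon bases with Cdkn1c and had 497 and 528 counts with INK128 against 151 and 364 in controls, beside 1018 and 1466 against 384 and 601 for Cdkn1c.

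**Figure D3:**
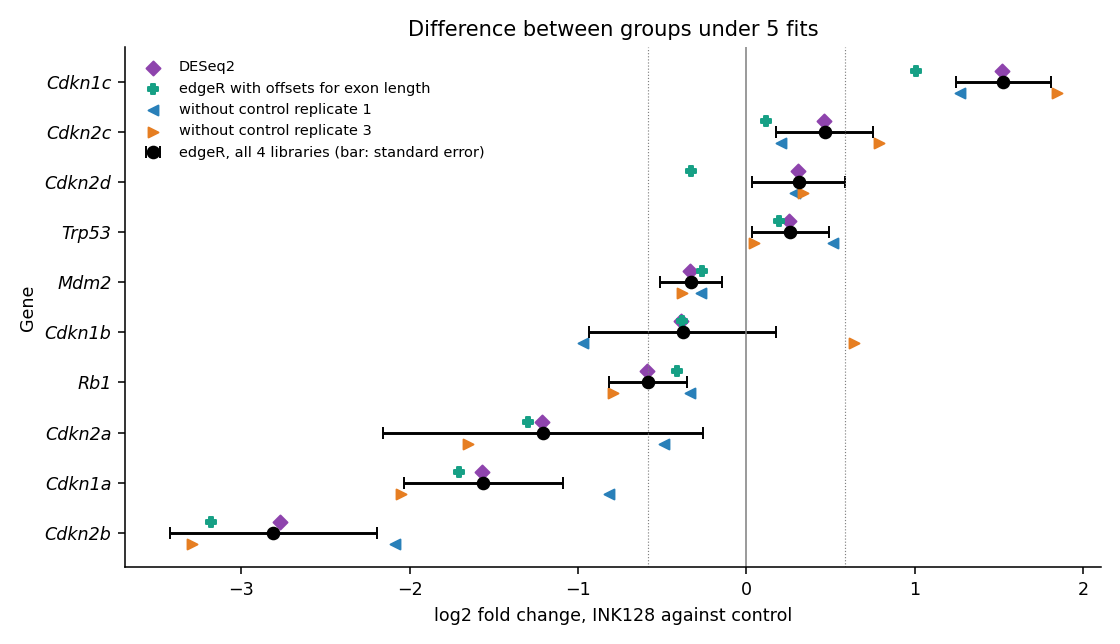
Log2 fold change of each gene, INK128 against control, in edgeR with all 4 libraries (black, bar: standard error, SE) and under 4 alternatives, with dotted lines at a fold change of 1.5. Cdkn2a is from the fit without a filter. Cdkn2b and Cdkn1a lie left of 0 and Cdkn1c right of 0 in all 5 fits, Cdkn1b changes side without control replicate 3, and Cdkn2d changes side with offsets for exon length.

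The INK4 genes did not all lie on 1 side. Cdkn2a and Cdkn2b, neighbours on chromosome 4, were lower in both INK128 libraries, and Cdkn2c and Cdkn2d were higher in both. Of these 4, Cdkn2b had the widest difference. In the filtered fits of all 4 libraries edgeR called none of the 3 that were tested. In the fit of all 4 without a filter it called Cdkn2b (adjusted p = 0.0180) and not Cdkn2a (adjusted p = 0.517).

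Cdkn2b encodes p15, an INK4 inhibitor known to respond to TGF-beta (chromosome 4, 89306299 to 89311039, minus strand). Its promoter is shown because it had the widest difference of the 10 genes, with the GC box in capitals.

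Cdkn2b promoter, chr4:89310983-89311282, minus strand: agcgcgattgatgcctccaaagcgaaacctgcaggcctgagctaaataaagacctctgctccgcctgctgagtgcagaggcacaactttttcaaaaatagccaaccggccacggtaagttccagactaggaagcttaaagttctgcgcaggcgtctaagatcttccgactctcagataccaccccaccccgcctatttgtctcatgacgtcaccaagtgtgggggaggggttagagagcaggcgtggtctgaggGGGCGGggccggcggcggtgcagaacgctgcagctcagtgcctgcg

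Cdkn2b had 16 and 20 counts with INK128 and 198 and 90 counts in control replicates 1 and 3. In CPM these were 0.859 and 0.920 against 8.77 and 3.80, so the INK128 libraries were nearly equal and the controls 2.31-fold apart. The means were 0.889 ± 0.0432 CPM (SD, n = 2) and 6.28 ± 3.51 CPM (SD, n = 2). Against controls the log2 difference was -2.81 (SE 0.61, adjusted p = 0.0664 in edgeR), and DESeq2 gave an adjusted p of 0.00343. It was -2.08 without control replicate 1 (adjusted p = 0.00617, edgeR) and -3.29 without control replicate 3 (adjusted p = 0.000131, edgeR). Both INK128 values lie under the limit of 1 CPM, so the gene was tested only because of its control levels, and these p-values are not independent of that filter. The gene is low in all libraries, where 3 counts correspond to 0.127 to 0.161 CPM.

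Cdkn2a encodes p16 and, in another frame, p19Arf, and its count cannot separate them (chromosome 4, 89274471 to 89294653, minus strand). It had 9 and 7 counts with INK128 and 30 and 14 in control replicates 1 and 3, and so 0.483 and 0.322 CPM against 1.33 and 0.590 CPM. The INK128 values were below both controls at levels of few counts. In the fit of all 31483 genes with at least 1 count, Cdkn2a had a log2 fold change of -1.21 (SE 0.95, adjusted p = 0.517 in edgeR), so no difference was shown with these few counts and with controls 2.25-fold apart. Without control replicate 1 the value was -0.49, and without control replicate 3 it was -1.65.

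Cdkn2c encodes p18 (chromosome 4, 109660876 to 109667189, minus strand). It had 37.8 and 30.5 CPM with INK128 and 19.7 and 29.6 CPM in control replicates 1 and 3, where the lower INK128 value lay just above the higher control. Cdkn2c had a log2 fold change of 0.47 (SE 0.29, adjusted p = 0.295 in edgeR). Without control replicate 3 it was 0.79 and was called (adjusted p = 0.0165, edgeR), and without control replicate 1 it was 0.20.

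Cdkn2d encodes p19Ink4d, a protein other than p19Arf (chromosome 9, 21288410 to 21291407, minus strand). It had 12.2 and 14.6 CPM with INK128 and 10.6 and 10.96 CPM in controls, which were the closest pair of controls among the members. The difference was 0.31 on the log2 scale (SE 0.28, adjusted p = 0.444 in edgeR). With offsets for exon length it was -0.33 (adjusted p = 0.481, edgeR), so its direction depended on the handling of length. Leaving out control replicate 1 or 3 gave 0.29 or 0.34.

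Trp53, which encodes p53 itself, overlapped between the groups (chromosome 11, 69580359 to 69591873, plus strand). It had 109 and 129 CPM with INK128 and 115 and 83.4 CPM in control replicates 1 and 3, so that 1 control lay between the INK128 libraries. Its log2 fold change was 0.26 (SE 0.23, adjusted p = 0.443 in edgeR), which was 0.51 without control replicate 1 and 0.05 without control replicate 3.

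Mdm2, whose transcription p53 also induces, was lower in both INK128 libraries (chromosome 10, 117688875 to 117710758, minus strand). It had 42.4 and 49.9 CPM with INK128 and 60.1 and 55.6 CPM in controls. Relative to controls it was lower by a log2 fold change of -0.33 (SE 0.18, adjusted p = 0.260 in edgeR), and this was -0.27 without control replicate 1 and -0.38 without control replicate 3.

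Rb1 encodes RB, the pocket protein that binds E2F factors (chromosome 14, 73183673 to 73325822, minus strand). It had 37.5 and 33.5 CPM with INK128 and 61.5 and 44.8 CPM in control replicates 1 and 3, so both INK128 values were below both controls. The corresponding log2 fold change was -0.58 (SE 0.23, adjusted p = 0.150 in edgeR). Without control replicate 3 it was -0.79 and was called (adjusted p = 0.00543, edgeR), and without control replicate 1 it was -0.34. Rb1 shares 488 exon bases with Rcbtb2 and 408 with Lpar6, both on the opposite strand.

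Levels were compared between genes per kilobase of merged exons (GENCODE M21). With INK128, Cdkn1c stood first at 29.9 ± 4.44 CPM per kb (SD, n = 2), followed by Trp53 at 29.5 ± 3.39 and Cdkn1b at 24.4 ± 4.55 (SD, n = 2 each). Cdkn1c and Trp53 differed by less than their SDs, and Cdkn1b was below both by slightly more than its SD. They were followed by Cdkn2c at 12.7, Mdm2 at 9.07, Cdkn2d at 8.52, Rb1 at 5.90, Cdkn1a at 4.38, Cdkn2b at 0.640 and Cdkn2a at 0.344 CPM per kb, and Mdm2 and Cdkn2d differed by less than their SDs. In controls Cdkn1b came first at 31.8 ± 22.7 CPM per kb (SD, n = 2), then Trp53 at 24.6, Cdkn1a at 12.9 ± 7.39, Mdm2 at 11.4 and Cdkn1c at 10.4, then Cdkn2c at 9.19, Rb1 at 8.83, Cdkn2d at 6.86, Cdkn2b at 4.52 and Cdkn2a at 0.819 CPM per kb. The SD of Cdkn1a spans Mdm2, Cdkn1c, Cdkn2c, Rb1 and Cdkn2d, and that of Cdkn1b, whose controls were 3.05-fold apart, spans Trp53, Cdkn1a, Mdm2, Cdkn1c and Cdkn2c, so the order of these control levels is not resolved.

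Around these genes, 176 related genes in 6 lists were examined, of which 170 were tested. edgeR called 11, 4 higher and 7 lower, beside 6.37% called among all genes of the first fit and 0% in the second, in which the list genes with a mean of 10 CPM or less were tested. The lists held 0 to 6 calls each, and differences between lists were not tested. The smallest adjusted p of any gene was 0.0464. limma voom (smallest adjusted p = 0.0599), the fit with length offsets and the single fit of genes with a mean CPM above 1 called 0 of them. Over all genes, limma voom and length offsets also called 0 of 11758 in the first fit, and the single fit called 0 of 17631. At an unadjusted p below 0.05 over all genes, these 3 counted 3979, 3137 and 5797 genes.

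Of 31 cyclins, CDKs, RB-like proteins and E2F factors, 3 fell and none rose in edgeR, beside 6.37% of all genes called. The split depended on the fit, with 1 higher and 4 lower in DESeq2 (28.6% of all genes called), 6 higher and 7 lower without control replicate 1 (45.8%), and 1 higher and 5 lower without control replicate 3 (42.6%). Ccnd1, the D-type cyclin that activates CDK4 and CDK6, had 37.2 and 45.6 CPM with INK128 and 103 and 112 CPM in controls (log2 fold change -1.38, adjusted p = 0.0464, edgeR). Rbl2, which encodes the pocket protein p130, had 37.7 and 41.0 CPM against 97.0 and 78.1 CPM (log2 fold change -1.15, adjusted p = 0.0486, edgeR). Tfdp2, a dimerization partner of E2F factors, had 48.6 and 45.3 CPM against 93.3 and 105 CPM (log2 fold change -1.08, adjusted p = 0.0464, edgeR). In all 3, both INK128 libraries lay below both controls. The median log2 fold change of the list was 0.12, with 16 positive and 15 negative values. Cdk4, the kinase that INK4 proteins bind, had 443 and 466 CPM against 256 and 252 CPM (log2 fold change 0.84, adjusted p = 0.0531, edgeR), and it was chosen after its values were seen.

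Of 28 p53 regulators, 3 rose and 3 fell in edgeR, beside 6.37% of all genes called, and DESeq2 called 8, beside 28.6%. The split was 7 higher and 4 lower without control replicate 1 (beside 45.8% of all genes called) and 4 higher and 7 lower without control replicate 3 (beside 42.6%). The 3 that rose were Rpl5, Rpl11 and Rpl23, ribosomal proteins known to bind Mdm2 as well as serving in the ribosome, with log2 fold changes of 1.28, 1.57 and 1.47 (adjusted p = 0.0464 each, edgeR). Hipk2, a kinase of p53, had 3.22 and 2.81 CPM with INK128 and 28.6 and 91.6 CPM in controls (log2 fold change -4.32, adjusted p = 0.0464, edgeR). Atm, the DNA damage kinase, had 2.79 and 3.77 CPM against 15.6 and 26.02 CPM (log2 fold change -2.66, adjusted p = 0.0464, edgeR). Ep300, an acetyltransferase of p53 and histones, had 51.7 and 43.7 CPM against 101 and 120 CPM (log2 fold change -1.21, adjusted p = 0.0475, edgeR). The INK128 libraries lay below both controls for each of these 3. Hipk2 and Atm passed the limit of 10 CPM only through the controls, where they are high, so their calls are not independent of the filter. The median of the list was -0.18.

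Of 40 p53 target genes, 1 rose and none fell in edgeR, beside 6.37% of all genes called, and with library totals alone none was called higher and 2 lower, where over all genes 374 higher and 375 lower calls became 290 and 580. Bax, which permeabilizes the mitochondrial membrane in apoptosis, had 85.8 and 87.9 CPM with INK128 and 44.1 and 44.1 CPM in controls, with replicates nearly equal in both groups (log2 fold change 0.98, standard error 0.16, adjusted p = 0.0476, edgeR). Of the 40 values 13 were positive and 27 negative, with a median of -0.25, beside 48.6% positive values among all tested genes. Of these targets, 16 were lower and 8 higher in both INK128 libraries, beside 34.0% and 34.5% of all genes. DESeq2 called 9, 2 higher and 7 lower, which is a smaller share than the 28.6% of all genes it called. Among those chosen after their values were seen, Ccng1, which encodes cyclin G1, had 51.2 and 46.6 CPM against 125 and 93.5 CPM (log2 fold change -1.16, adjusted p = 0.0507, edgeR). Pmaip1, which encodes the apoptosis protein NOXA, had 0.698 and 1.01 CPM against 4.16 and 6.54 CPM (log2 fold change -2.63, adjusted p = 0.0630, edgeR), and its mean passed the limit of 1 CPM only through the controls.

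**Figure D4:**
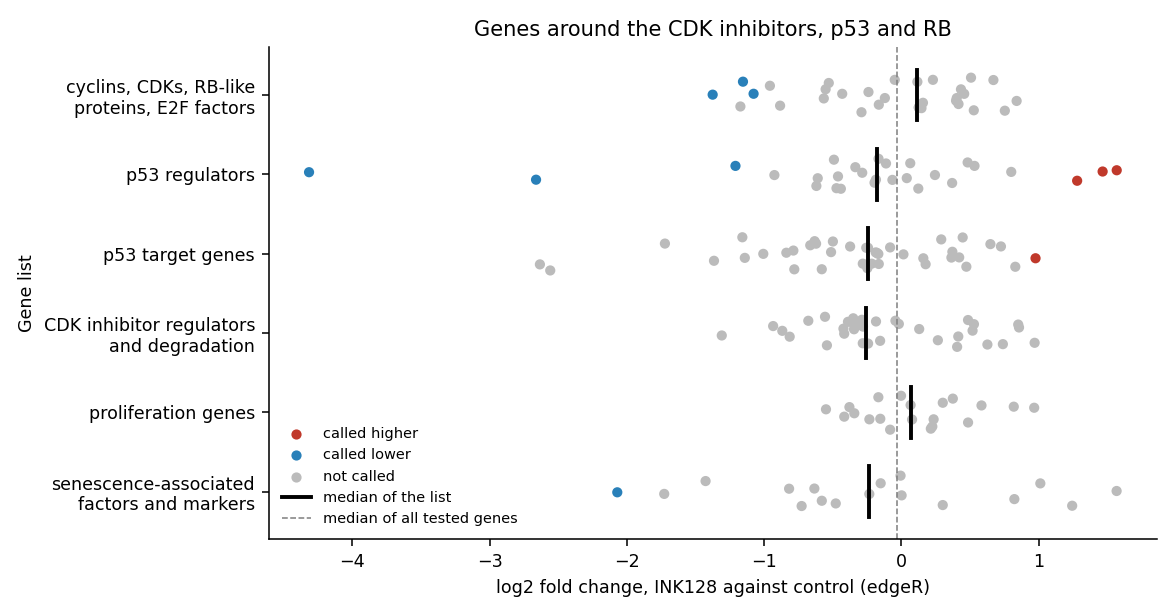
Log2 fold change (edgeR, INK128 against control) of each tested gene in 6 related lists, with a black bar at the median of each list and a dashed line at the median of all tested genes (-0.03). Red points were called higher (4 genes) and blue points called lower (7 genes), and the grey points were not called.

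Of 34 genes that regulate the CDK inhibitors or degrade their proteins, edgeR called 0, while 10 had an unadjusted p below 0.05 and DESeq2 called 7, both smaller shares than the 36.4% and 28.6% of all genes. The median was -0.26, with 12 positive and 22 negative values. Skp2, which marks p27 for degradation, had 18.04 and 22.8 CPM with INK128 and 30.1 and 21.8 CPM in controls. Foxo3, a transcription factor known to induce Cdkn1b, had 117 and 70.0 CPM against 222 and 106 CPM. Both overlapped between groups, and both were chosen after their values were seen.

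Of 20 proliferation genes, edgeR and DESeq2 called 0 and 2 had an unadjusted p below 0.05 in edgeR (Pcna and Top2a, with log2 fold changes of 0.58 and -0.55, chosen after their values were seen). Over all genes these shares were 6.37% (edgeR), 28.6% (DESeq2) and 36.4% (unadjusted p). The median was 0.07. Fits without 1 control rest on a lone control, and their calls stand beside the shares of all genes in the closing section.

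Of 23 senescence-associated secreted factors and markers, 17 were tested, 10 of them in the first fit, and 1 fell in edgeR, beside 6.37% of all genes called in the first fit and 0% in the second. Igfbp3, an insulin-like growth factor binding protein, had 66.9 and 70.7 CPM with INK128 and 381 and 197 CPM in control replicates 1 and 3 (log2 fold change -2.07, adjusted p = 0.0495, edgeR). DESeq2 called 4, 3 higher and 1 lower, beside 28.6% of all genes in the first fit and 23.8% in the second. The split was 3 higher and 6 lower without control replicate 1 (beside 45.8% of all genes called) and 5 higher and 3 lower without control replicate 3 (beside 42.6%). The other 6, Il6, Il1a, Cxcl2, Tnf, Mmp3 and Mmp13, had a mean CPM of 1 or less.

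The genes whose pattern over the 4 libraries was most like that of Cdkn1c were Dact3, Gm10269 and Uqcr11, with Euclidean distances of 0.0708, 0.0797 and 0.0809 between deviations of log2 CPM from each gene's mean. Dact3 had 54.0 and 62.6 CPM with INK128 and 16.6 and 24.9 CPM in controls.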

How the data were processed

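RNA-seq of 4 rOvary libraries was analysed. By the paper's methods, the authors used Trimmomatic (trimming), Hisat2 (alignment to mm10) and featureCounts (RefGene annotation). They deposited raw counts per gene symbol, without normalization or pooling, and whether the symbols match RefGene was not checked. Versions and the strand setting are not given in the sources used here. The labelled dose is per g of body weight, while the paper's methods give a concentration in the water with an approximate daily dose, and these were not reconciled here.

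These counts were scaled to CPM by TMM factors in edgeR 4.0.16 (R 4.3.3). The quasi-likelihood test of edgeR was run on the 11758 genes whose mean exceeded 10 CPM, with Benjamini-Hochberg adjustment. Genes below that limit were tested in a second fit of 17631 genes (mean above 1 CPM). edgeR's common dispersion was 0.0949. Each standard error (SE) came from the fold change and its F statistic. Calls needed a fold change above 1.5 at an adjusted p below 0.05. The code was tested on simulated data. Exon lengths and positions came from GENCODE M21 (53447 of 54021 symbols matched) and promoters from RefSeq. The floors of 3 counts cover counting error only.

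Named genes were the 10 members, every called gene of the related lists, and the 3 genes nearest in pattern to the member with the smallest p. Genes whose exons overlap a member are named too, and Cdk4, Ccng1, Pmaip1, Skp2, Foxo3, Pcna and Top2a were chosen after their values were seen. Members and lists were chosen with earlier results of these data known. Alternatives were DESeq2 1.42.0, limma 3.58.1 (voom), other scaling factors, other filters, length offsets (lowess span 0.3), other thresholds, and leaving out each library. With 2 samples a group, an exact permutation test cannot go below p = 0.333 (two-sided) and was not used.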

Additional observations from a re-analysis of the deposited data

How the results depend on the processing

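Of 117 log2 fold changes of members under alternatives, 99 kept their direction and remained not called, 16 passed the threshold in the same direction and 2 reversed. No member was called at first, so none could lose a call. Cdkn2d reversed to -0.33 with length offsets, and Cdkn1b reversed to 0.64 without control replicate 3, with leave-one-out values of -0.97 to 0.64. The cause was not tested. Library totals alone shifted the median of all genes from -0.03 to -0.15 and kept the sign of every member.

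Over all genes tested, 6.37% were called in edgeR, 28.6% with DESeq2, 7.40% with library totals (290 higher and 580 lower), 15.1% with a CPM above 10 in all 4 libraries, 9.86% without a filter, 26.6% at an adjusted p below 0.1, and 45.8% and 42.6% without control replicates 1 and 3, and the counts below stand beside these shares. The count of members called was 0 in edgeR. It was 3 with DESeq2, 1 when genes needed a CPM above 10 in all 4 libraries, 3 without a filter, 3 at an adjusted p below 0.1, and 0 to 6 when leaving out 1 library. For cyclins, CDKs, RB-like proteins and E2F factors, 3 became 5 with DESeq2 and at an adjusted p below 0.1, and 0 to 13 when leaving out 1 library. For p53 regulators, 6 became 8 with DESeq2 and at an adjusted p below 0.1, and 0 to 11 when leaving out 1 library. For p53 target genes, 1 became 9 with DESeq2, 2 with library totals (both lower, in place of 1 higher), 3 with a CPM above 10 in all 4 libraries, 7 without a filter, 7 at an adjusted p below 0.1, and 0 to 17 when leaving out 1 library. For regulators and degradation of CDK inhibitors, 0 became 7 with DESeq2, 3 with a CPM above 10 in all 4 libraries, 4 without a filter, 6 at an adjusted p below 0.1, and 0 to 13 when leaving out 1 library. For proliferation genes, 0 became 0 to 7 when leaving out 1 library. For senescence-associated factors, 1 became 4 with DESeq2, 3 with a CPM above 10 in all 4 libraries, 4 without a filter, 4 at an adjusted p below 0.1, and 0 to 9 when leaving out 1 library. In the lists with calls (cyclins, p53 regulators, p53 targets and senescence-associated factors), limma voom, length offsets and the single fit of genes with a mean CPM above 1 each gave 0. Over all genes, limma voom and length offsets called 0 of 11758 in the first fit, and the single fit called 0 of 17631. These zeros therefore do not set the lists apart from other genes. Leaving out either INK128 library gave 0 calls among all 11758 genes (smallest adjusted p = 0.381 and 0.438, edgeR), so it says nothing about the lists, and the higher counts came from leaving out a control.

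No paired analysis was possible because the groups share only 1 replicate number. With 2 libraries a group, the differences of Trp53 (0.26, SE 0.23) and Mdm2 (-0.33, SE 0.18) were not resolved, and Cdkn2a had only 7 to 30 counts a library.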
